A study of Mus musculus with 2 samples.

Results

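The genes described here were the SOX trio (*Sox5*, *Sox6* and *Sox9*), the RUNX family (*Runx1*, *Runx2* and *Runx3*) and the osteoblast factors *Sp7*, *Dlx5* and *Dlx6*. They were taken by name from the count tables, which shared 22652 genes, and all 9 members were present in both tables. Each member was followed across the cartilage, bone-forming, stromal, tendon, vascular and blood cells of the fetal femur.

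The study profiled single cells of fetal femoral bone marrow at E18.5, shortly before birth, using the whole transcriptome assay of BD Rhapsody, a microwell platform that tags each captured transcript with a unique molecular identifier (UMI). Marrow was freed with type 4 collagenase, and cells carrying mature blood lineage markers were removed on magnetic columns. The WT library came from C57BL/6 embryos. The Bmx-CreER Wls library, called the Wls library from here on, came from C57BL/6 embryos in which a tamoxifen-dependent Cre recombinase driven by *Bmx* was used to delete *Wls*, the carrier protein that takes Wnt ligands to the cell surface. *Bmx* is active in arterial endothelial cells, so the deletion was aimed at the artery lining and not at the skeletal cells described here. Tamoxifen was given to the pregnant mothers of the Wls embryos. Whether the WT embryos were littermates or received tamoxifen, and how many embryos went into each library, is not given in the sources used here.

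Each genotype had 1 library, so no difference between genotypes could be tested, and a ratio between libraries compares those libraries and not the genotypes. A level gives the UMIs of a gene in a cell class, scaled to 1000000 UMIs of all genes in that class (CPM), with a 95% Poisson interval. Ratios carry 95% conditional binomial intervals and shares of cells 95% Clopper-Pearson intervals. All of these cover counting error only. CPM was not scaled to transcript length, so levels were compared between classes for the same gene and not between genes.

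The WT library held 22708005 UMIs in 5998 barcodes and the Wls library 24704991 UMIs in 6825 barcodes, of which 5736 and 6620 cells were kept, with medians of 3128 and 3067 UMIs. The kept cells of the libraries had 48 barcode sequences in common. *Wls* itself was sparse in the targeted cells, with 9 UMIs in 70 WT and 2 UMIs in 64 Wls arterial endothelial-like cells, or 39.7 CPM (18.1 to 75.3) against 7.33 CPM (0.887 to 26.5). Across all kept cells the libraries were clustered together without the 9 members, and classes were named from marker lists that hold none of them; these names are not the authors' annotation. Cartilage cells made up 42.7% of kept WT cells and 60.4% of kept Wls cells. Some small groups carried cartilage transcripts on top of another cell type. Of these the mixed osteolineage and cartilage group, with 33 WT and 26 Wls cells, and the mixed blood and cartilage group, with 21 and 18 cells, were counted in the totals of all osteolineage-like and all blood-like cells but not in their classes.

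SOX9 is the master regulator of the cartilage lineage. SOX5 and SOX6 lack an activation domain of their own and bind beside SOX9 on cartilage matrix genes. RUNX2 is needed both for chondrocyte hypertrophy and for the formation of osteoblasts, SP7 (osterix) acts downstream of it, and DLX5 and DLX6 are homeodomain proteins encoded side by side that take part in chondrocyte maturation and osteoblast differentiation. RUNX1 is required for the emergence of blood stem cells from endothelium and is widely used in blood progenitors, and RUNX3 acts in lymphoid cells, in neurons and, together with RUNX2, in chondrocyte maturation. The growth plate runs from resting through proliferating to hypertrophic chondrocytes, which make type X collagen, and bone forms next to the hypertrophic zone.

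The trio separated cartilage from bone-forming cells in both libraries. The summed level of *Sox5*, *Sox6* and *Sox9* in the 4 chondrocyte-like classes was 2287 CPM in the WT library against 206 CPM in all osteolineage-like cells, an 11.1-fold difference (9.92 to 12.4). In the Wls library the levels were 2226 and 178 CPM, a 12.5-fold difference (10.8 to 14.6). Without the mixed osteolineage and cartilage cells, an alternative added after seeing the data, the folds were 18.54 (15.9 to 21.7) and 19.0 (15.5 to 23.6), at 123 and 117 CPM in the osteolineage-like cells. The summed level of *Runx2*, *Sp7*, *Dlx5* and *Dlx6* ran the other way, at 1149 CPM in osteolineage-like and 270 CPM in chondrocyte-like cells of the WT library, a 4.25-fold difference (3.99 to 4.53), and at 1152 and 182 CPM in the Wls library, a 6.33-fold difference (5.88 to 6.80). The smaller contrast of the osteoblast set came with its presence in hypertrophic cells, described below.

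**Figure D1:**
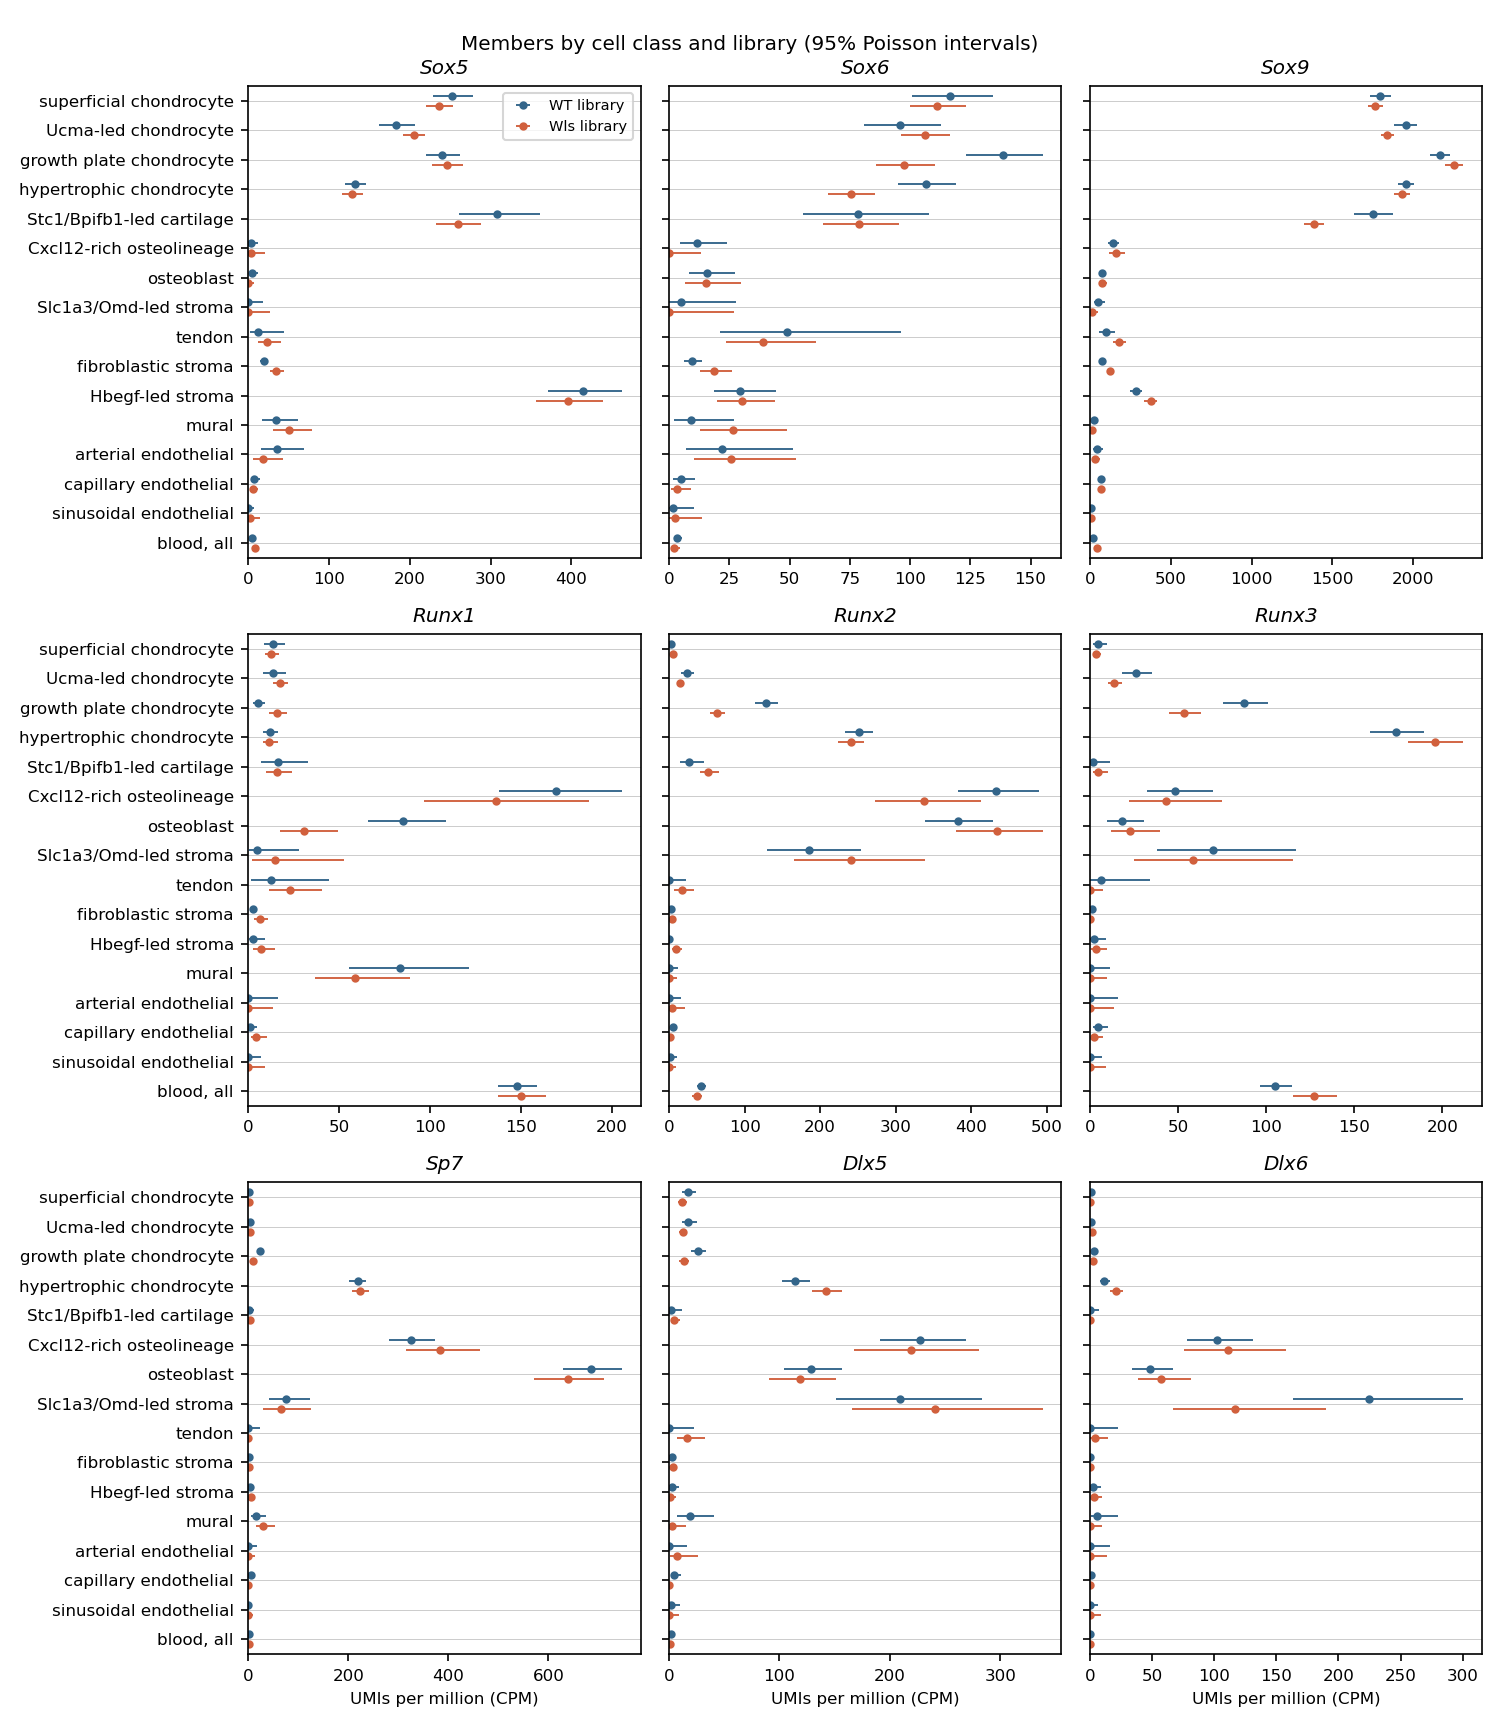
Level of each member in CPM (scaled UMIs, x axes, a separate scale for each gene) in 15 cell classes and in all blood-like cells (y axes), with WT library points in blue, Wls library points in orange and bars for the 95% Poisson interval. *Sox9* sits between 1385 and 2251 CPM in the 5 cartilage rows and at or below 376 CPM elsewhere, *Sox5* is highest in the Hbegf-led stroma, and *Runx2* and *Runx3* share the hypertrophic row but not the osteoblast row.

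*Sox9* lies on chromosome 11 (chr11:112782224-112787760, plus strand, mm10) and overlaps no other annotated gene. It was highest in growth plate chondrocyte-like cells, the class led by the proliferating-zone gene *Epyc*, at 2167 CPM (2106 to 2229.9) in the WT library and 2251 CPM (2193 to 2309.7) in the Wls library. Hypertrophic cells, the class led by *Col10a1* and *Ihh*, held 1954 and 1933 CPM. Many cells of this class carried no *Col10a1* UMI, as described below, so the name covers a mixed class. Among its sub-clusters, a cycling one held 136 WT and 113 Wls cells. A *Slc40a1*-led one, enriched for 4 superficial chondrocyte markers over the rest of the class, held 68 and 50 cells. The *Lipg*-led one, enriched for 3 hypertrophic markers over the rest, held 98 and 72 cells. Cells led by *Ucma*, a resting-zone gene, held 1952.5 and 1840.3 CPM, and superficial cells, marked by the joint-surface gene *Prg4*, held 1796 and 1766 CPM. *Sox9* therefore spanned a narrow range over the zones, with growth plate cells 1.11-fold (1.07 to 1.15) above hypertrophic cells in the WT library and 1.16-fold (1.12 to 1.21) above them in the Wls library. Of all *Sox9* UMIs in kept cells, 88.9% in the WT library and 89.3% in the Wls library were in these 4 zones.

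Almost every growth plate cell carried *Sox9*. A UMI was found in 97.4% of WT and 98.0% of Wls growth plate cells, at median depths of 3085.5 and 2929.5 UMIs, against 2.63% and 3.23% of sinusoidal endothelial-like cells, which should lack the gene, at median depths of 3029.5 and 3420.0 UMIs. The sinusoidal cells held less cartilage RNA than other endothelial cells. The 10 chondrocyte markers summed to 400 and 671 CPM in them, 2345 and 3220 CPM in arterial and 3910 and 3969 CPM in capillary cells. When each cell was thinned to 1000 UMIs, the shares were 84.6% and 84.3% in growth plate cells and 5.74% and 4.17% in osteoblast-like cells. Outside cartilage, *Sox9* was 144 CPM (115 to 178) and 161 CPM (118 to 216) in Cxcl12-rich osteolineage-like cells, the class led by the niche chemokine *Cxcl12*, and 75.9 and 76.2 CPM in osteoblast-like cells, the class led by *Slc13a5* and rich in *Ibsp*. The Cxcl12-rich cells were thus 1.90-fold (1.34 to 2.69) and 2.12-fold (1.35 to 3.33) above the osteoblasts in the WT and Wls libraries. The 10 chondrocyte markers ran the other way, summing to 1187 and 1245 CPM in the Cxcl12-rich cells and 9030.5 and 9255 CPM in the osteoblasts.

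*Sox5* (chr6:143828425-144781977, minus strand, mm10), one of the partners of *Sox9*, was not highest in the growth plate. Its top class was a fibroblastic stroma led by *Hbegf*, a growth factor of the epidermal growth factor family, at 415 CPM (371 to 463) in the WT library and 396 CPM (356 to 439) in the Wls library. That was 1.64-fold (1.42 to 1.91) and 1.67-fold (1.47 to 1.90) above superficial chondrocytes, and 22.1-fold (16.6 to 29.7) and 11.6-fold (8.80 to 15.5) above the other fibroblastic stroma. Superficial cells held 252 and 237 CPM and growth plate cells 240.0 and 246 CPM, with no difference beyond counting error between them in either library. Hypertrophic cells held 132 and 129 CPM, so growth plate cells were 1.82-fold (1.59 to 2.08) and 1.91-fold (1.68 to 2.17) above them. In the sinusoidal cells *Sox5* was listed at 0 UMIs in the WT library, where 3 counts would be 5.46 CPM, and at 2.48 CPM in the Wls library.

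The Hbegf-led stroma was a place where the trio came apart. In the same cells *Sox9* was 286 and 376 CPM, 6.29-fold (5.49 to 7.24) and 4.70-fold (4.21 to 5.26) below superficial chondrocytes, and *Sox6* was 29.5 and 30.2 CPM, 3.96-fold (2.57 to 6.40) and 3.68-fold (2.49 to 5.67) below them. Its 4 sub-clusters, formed after the main clustering, differed widely in *Sox5*. A *Ptger3*-led group of 52 WT and 40 Wls cells held 739 and 668 CPM of *Sox5* with 246 and 189 CPM of *Sox9*, and a group led by *Col2a1*, with 80 and 77 cells, held 583 and 525 CPM of *Sox5* with 579 and 697 CPM of *Sox9*. The largest group, led by *Ogn*, held 183 and 297 CPM of *Sox5* with 110.3 and 225 CPM of *Sox9*. The tendon gene *Tnmd* had 0 UMIs in all 4 sub-clusters of both libraries. High *Sox5* therefore occurred both with and without high *Sox9*, and the 10 chondrocyte markers summed to 2544 and 3024 CPM in the class as a whole, against 45663 and 62272 CPM in superficial cells. The study's own cell list gives cluster numbers, which were matched here to its subset names. Among the WT cells so matched to eBMSC-2, an embryonic marrow stromal subset, *Sox5* stood at 616 CPM (546 to 691) with *Sox9* at 354 CPM.

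*Sox6* (chr7:115470872-116038796, minus strand, mm10) was spread more evenly over cartilage. In the WT library its levels were 138 CPM (123 to 155) in growth plate, 117 CPM in superficial, 106 CPM in hypertrophic, 96.0 CPM in Ucma-led and 78.5 CPM in the cartilage cells led by *Stc1* and *Bpifb1*, and no neighbours in this order differed beyond counting error. In the Wls library superficial cells came first at 111 CPM, followed by Ucma-led cells at 106 CPM, growth plate cells at 97.5 CPM, the Stc1- and Bpifb1-led cells at 78.6 CPM and hypertrophic cells at 75.3 CPM, again with no separated neighbours. Growth plate cells were 1.30-fold above hypertrophic cells in both libraries, with intervals of 1.11 to 1.53 and 1.08 to 1.55. *Sox5* and *Sox6* each overlap antisense genes in the annotation, 5 and 2 of them. The strand used in counting is not given in the sources used here, so reads of the overlapping genes cannot be told apart. The same limit holds for *Runx2*, which overlaps 4 antisense genes, among them *Supt3*, and for *Runx1* and *Runx3*, which overlap 1 each.

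The cartilage cluster led by *Stc1* and *Bpifb1*, which was not named as a chondrocyte zone, held the trio beside less cartilage matrix than growth plate cells. *Sox5* was 308 and 259 CPM and *Sox9* 1750.1 and 1385 CPM in its 175 WT and 363 Wls cells, while the 10 chondrocyte markers summed to 16873 and 23930 CPM, against 169670.0 and 176440.0 CPM in growth plate cells.

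*Runx2* (chr17:44495987-44814797, minus strand, mm10) was highest in the osteolineage-like cells. Cxcl12-rich cells held 433 CPM (382 to 489.6) and 337 CPM (273 to 413), and osteoblast-like cells 382 CPM (339 to 428) and 435 CPM (380.0 to 495). Their order turned between libraries, the osteoblast level being 0.881 of the Cxcl12-rich level (0.743 to 1.05) in the WT library and 1.29 of it (1.01 to 1.66) in the Wls library. Neither state of the bone lineage was therefore set apart by *Runx2* in both libraries.

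In cartilage *Runx2* formed a steep ladder. It was 251 CPM (233 to 270.2) and 241 CPM (224 to 259) in hypertrophic cells, 129 and 63.7 CPM in growth plate cells, 23.3 and 13.97 CPM in Ucma-led cells, and 3.02 and 5.27 CPM in superficial cells. Hypertrophic cells stood 1.95-fold (1.70 to 2.25) and 3.78-fold (3.19 to 4.50) above growth plate cells, which stood 5.52-fold (3.88 to 8.09) and 4.56-fold (3.36 to 6.28) above Ucma-led cells. Hypertrophic and growth plate cells also held most of the gene's RNA, since the 4 zones together carried 53.5% of all *Runx2* UMIs in the WT library and 60.5% in the Wls library, against 31.3% and 24.1% in osteolineage-like cells.

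*Runx3* (chr4:135120652-135177990, plus strand, mm10) followed the same ladder over the cartilage classes and left it in bone. Within growth plate and hypertrophic cells ordered by *Col10a1* it parted from *Runx2*, as described below. Hypertrophic cells held 174 CPM (159 to 189.7) and 196 CPM (180.4 to 212), growth plate cells 87.7 and 53.6 CPM, Ucma-led cells 26.0 and 13.97 CPM and superficial cells 4.84 and 3.41 CPM. Hypertrophic cells were 1.98-fold (1.67 to 2.36) and 3.65-fold (3.03 to 4.42) above growth plate cells. In osteoblast-like cells, where *Runx2* was near its highest level, *Runx3* was 18.3 CPM (10.01 to 30.7) and 22.9 CPM (11.8 to 40.0). The Cxcl12-rich cells held 48.5 and 43.1 CPM of *Runx3*, 2.65-fold (1.36 to 5.43) and 1.88-fold (0.774 to 4.58) the osteoblast level, so that this step lay beyond counting error in the WT library alone.

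As *Runx2* and *Runx3* shared the cartilage ladder, their promoter windows are shown with the core sequence that RUNX proteins bind, TGTGGT on either strand. The windows are the 250 bases before the annotated start in RefSeq (GRCm38.p6), printed on the strand of the gene, with matches in capitals.

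Runx2, chr17:44814628-44814877, minus strand: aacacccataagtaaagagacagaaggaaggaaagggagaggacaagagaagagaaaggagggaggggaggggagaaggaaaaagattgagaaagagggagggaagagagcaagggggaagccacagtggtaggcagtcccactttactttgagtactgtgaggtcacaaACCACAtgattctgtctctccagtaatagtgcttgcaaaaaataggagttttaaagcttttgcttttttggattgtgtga

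Runx3, chr4:135120395-135120644, plus strand: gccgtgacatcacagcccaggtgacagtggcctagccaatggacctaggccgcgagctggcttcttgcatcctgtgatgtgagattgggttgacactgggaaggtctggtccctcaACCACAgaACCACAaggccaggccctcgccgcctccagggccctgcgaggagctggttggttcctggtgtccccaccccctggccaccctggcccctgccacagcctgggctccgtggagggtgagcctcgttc

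The *Runx2* window held 1 match, 80 bases before the RefSeq start, and the *Runx3* window held 2, at 134 and 126 bases before it. The gene spans printed above are from GENCODE M21. For *Runx2* the RefSeq start lies inside that span, so most of the window and its match fall within the span. Of 32851 windows of this length in the table, 4614 held at least 1 match and 418, or 1.27%, held 2 or more. The other *Runx3* window, both *Runx1* windows and the *Sox5* window held none, and 2 of the 6 *Sox6* windows held 1 match each. *Sox9*, *Sp7*, *Dlx5* and *Dlx6* had no entry. A match describes the letters of the window and is not a measurement of binding.

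*Sp7* (chr15:102356606-102367182, minus strand, mm10) had its highest level in osteoblast-like cells. It was 686 CPM (628 to 747) and 638 CPM (572 to 711) in osteoblast-like cells, and 325 CPM (281 to 374) and 384 CPM (315 to 464) in Cxcl12-rich cells. The osteoblasts stood 2.11-fold (1.79 to 2.50) above the Cxcl12-rich cells in the WT library and 1.66-fold (1.33 to 2.09) in the Wls library. The second domain was hypertrophic cartilage at 218 CPM (202 to 236) and 223 CPM (207 to 240.3), where *Sp7* was 9.10-fold (6.85 to 12.3) and 26.1-fold (17.1 to 41.9) above growth plate cells. The chondrocyte zones together carried 46.0% of all *Sp7* UMIs in the WT library and 58.4% in the Wls library, against 50.7% and 38.8% in osteolineage-like cells. The gene was listed at 0 UMIs in sinusoidal endothelial-like and erythroid-like cells of both libraries.

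*Dlx5* (chr6:6877805-6882085, minus strand, mm10) and *Dlx6* (chr6:6863334-6868568, plus strand) took the opposite order within the bone lineage. *Dlx5* was 228 CPM (191 to 269) and 219 CPM (167 to 281) in Cxcl12-rich cells and 128 CPM (104 to 156) and 118 CPM (90.6 to 151) in osteoblast-like cells, a difference of 1.78-fold (1.36 to 2.33) and 1.85-fold (1.28 to 2.68). *Dlx6* was 102 CPM (78.1 to 131) and 111 CPM (75.6 to 158) in the Cxcl12-rich cells and 48.4 and 57.2 CPM in the osteoblasts, a difference of 2.11-fold (1.38 to 3.26) and 1.95-fold (1.14 to 3.33). Both genes were therefore higher in the cells with more *Cxcl12*, and *Sp7* was higher in the cells with more *Ibsp*, in both libraries. In hypertrophic cells the pair parted. *Dlx5* was 114 and 143 CPM there, near the osteoblast level, whereas *Dlx6* was 11.4 and 21.2 CPM, below it.

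A small stromal class led by *Slc1a3* and *Omd*, with 66 WT and 44 Wls cells, carried the Dlx pair with little *Sp7*. *Dlx5* was 209.6 and 241 CPM, not separated from the Cxcl12-rich level, with ratios of 0.921 (0.635 to 1.31) and 1.10 (0.698 to 1.71). *Dlx6* was 225 CPM (164 to 301) in the WT library, from 45 UMIs, and 117 CPM (66.8 to 189.7) in the Wls library, from 16 UMIs. *Runx2* was 185 and 241 CPM in this class and *Sp7* 74.9 and 65.7 CPM, the latter 4.34-fold (2.57 to 7.90) and 5.84-fold (2.97 to 13.1) below Cxcl12-rich cells. *Sox5* was listed at 0 UMIs in these cells in both libraries, and *Sox9* had 10 and 2 UMIs. *Dlx6* lies within the span of antisense transcripts, among them *Dlx6os1*, which had 41 UMIs in the WT and 39 UMIs in the Wls library, and without the strand of counting their reads cannot be told apart.

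**Figure D2:**
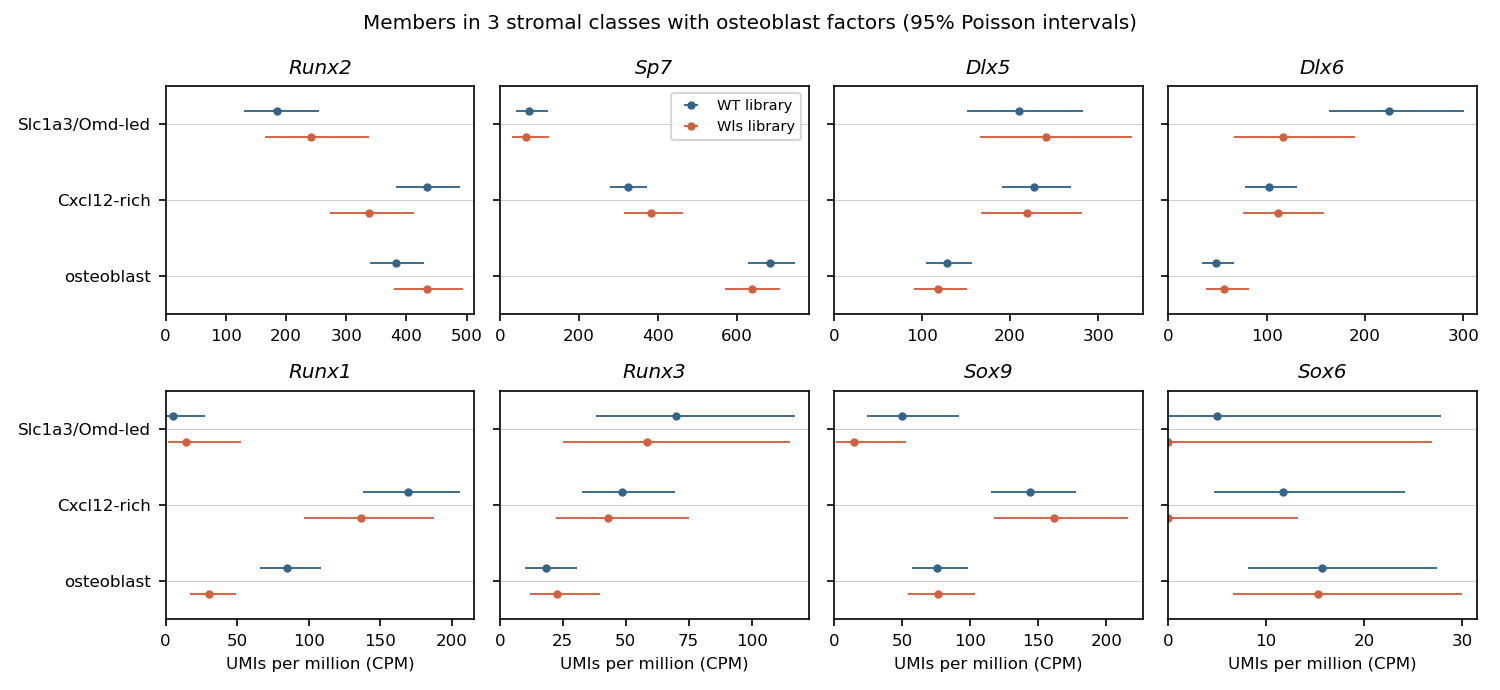
Level in CPM (scaled UMIs) of the RUNX genes, *Sp7*, *Dlx5*, *Dlx6*, *Sox9* and *Sox6* in Cxcl12-rich osteolineage, osteoblast and Slc1a3- and Omd-led stromal cells, per library, with 95% Poisson intervals. *Sp7* is highest in osteoblasts at 686 and 638 CPM, while *Dlx5*, *Dlx6* and *Runx1* are higher in Cxcl12-rich cells than in osteoblasts in both libraries.

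*Runx1* (chr16:92601466-92826149, minus strand, mm10) was mainly a gene of blood cells. All blood-like cells together held 148 CPM in the WT and 149.98 CPM in the Wls library, 4.39-fold (3.75 to 5.16) and 5.23-fold (4.29 to 6.41) above the fibroblastic, osteolineage and tendon-like cells together. Mast cell and basophil-like cells held 414 CPM (353 to 482) and 336 CPM (277 to 403), 1.68-fold (1.37 to 2.07) and 1.36-fold (1.05 to 1.75) above multipotent HSPC-like cells, the hematopoietic stem and progenitor cells, at 246 CPM (215 to 280.2) and 247 CPM (208 to 291). Megakaryocyte-like cells held 284 and 256 CPM, not separated from the multipotent HSPC-like cells. Erythroid-like and osteoclast-like cells held less than the multipotent HSPC-like cells, at 44.7 and 65.2 CPM and at 46.2 and 42.2 CPM. In sinusoidal endothelial-like cells *Runx1* had 0 UMIs in both libraries, where 3 counts would be 5.46 and 7.45 CPM.

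Outside blood, *Runx1* marked a part of the bone lineage and the vessel wall. Cxcl12-rich osteolineage cells held 169 CPM (138 to 205) and 136 CPM (96.5 to 187), which was 1.99-fold (1.44 to 2.76) and 4.47-fold (2.43 to 8.59) above osteoblast-like cells at 85.0 and 30.5 CPM. Beside this, the 7 macrophage and monocyte markers summed to 8.37 and 17.9 CPM in the Cxcl12-rich cells, with 5 and 4 of them at 0, against 920.2 and 1166 CPM in blood-like cells. The 6 mast cell and basophil markers summed there to 1.67 and 7.18 CPM, with 5 of them at 0 in each library, against 4672 and 6038 CPM in mast cell and basophil-like cells. The 6 multipotent HSPC markers summed to 56.9 and 39.5 CPM in the Cxcl12-rich cells, against 2221 and 2183 CPM in multipotent HSPC-like cells, and the 6 megakaryocyte markers to 8.37 and 21.5 CPM, against 310.5 and 946 CPM in megakaryocyte-like cells. The part of blood RNA in the *Runx1* level was not tested. Mural-like cells, the smooth muscle and pericyte-like cells around vessels, held 83.5 CPM (55.1 to 122) and 58.7 CPM (36.8 to 88.9) of *Runx1*, against 2.27 and 6.17 CPM in fibroblastic stroma, a difference of 36.8-fold (15.6 to 100.1) and 9.52-fold (4.42 to 21.7).

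All of the RUNX genes were found in multipotent HSPC-like cells. *Runx2* was 149 CPM (125 to 176) and 123 CPM (95.8 to 155) there, with a UMI in 53.5% and 43.6% of cells at median depths of 5551 and 5710.5 UMIs, and 3.24-fold (1.99 to 5.54) and 6.58-fold (3.03 to 16.9) above megakaryocyte-like cells. In erythroid-like cells, at the greater median depths of 10099.5 and 11143 UMIs, *Runx2* had 0 UMIs in both libraries, where 3 counts would be 3.94 and 10.9 CPM. The 10 osteoblast markers summed to 83.8 and 62.2 CPM in the multipotent HSPC-like cells, and *Sp7* had 0 UMIs in them. After thinning to 1000 UMIs the shares with *Runx2* were 9.74% and 9.68%.

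*Runx3* in blood reached the level of the hypertrophic chondrocyte-like class as a whole. Megakaryocyte-like cells held 184 CPM (145 to 231) and 205 CPM (162 to 256), multipotent HSPC-like cells 158 CPM (133 to 186) and 192 CPM (158 to 231), and mast cell and basophil-like cells 141 and 219 CPM. The ratio of hypertrophic to multipotent HSPC-like cells was 1.10 (0.914 to 1.33) and 1.02 (0.832 to 1.26). Unlike *Runx1*, *Runx3* kept 86.8 and 86.9 CPM in erythroid-like cells, and like it had a low level in osteoclast-like cells, at 23.1 and 24.6 CPM, which was 6.83-fold (4.59 to 10.5) and 7.79-fold (4.86 to 13.1) below the multipotent HSPC-like cells.

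**Figure D3:**
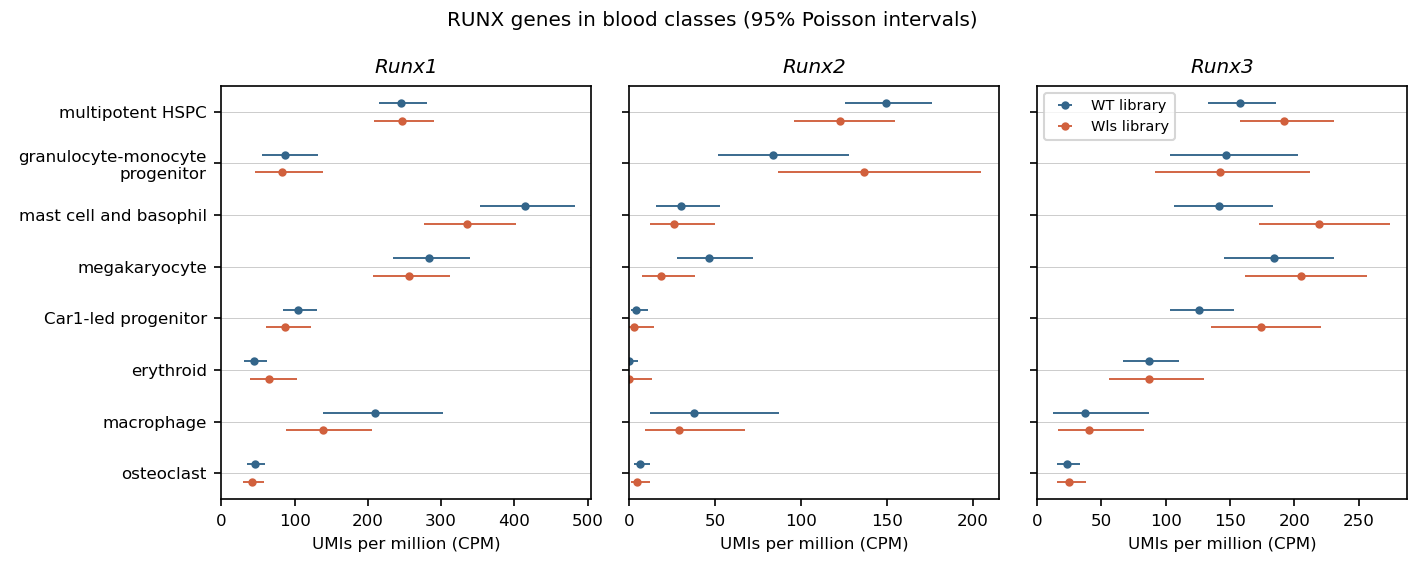
Level in CPM (scaled UMIs) of *Runx1*, *Runx2* and *Runx3* in the blood-like classes, per library, with 95% Poisson intervals. *Runx1* peaks in mast cell and basophil-like cells at 414 and 336 CPM, *Runx2* reaches 149 and 123 CPM in multipotent HSPC-like cells and is at 0 in erythroid-like cells, and *Runx3* stays between 86.8 and 219 CPM outside the macrophage and osteoclast classes.

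*Col10a1* was used to order growth plate and hypertrophic cells, in 4 ranges chosen after the data were seen: 0, above 0 to 1000, 1000 to 10000 and above 10000 CPM per cell. These are ranges of a continuous measure and not cell types. Of the 2406 cells, 13 lay within 20% of 1000 CPM and 21 within 20% of 10000 CPM. *Col10a1* itself was left out of the totals. The ranges held 845, 51, 55 and 158 WT cells and 1012, 71, 56 and 158 Wls cells. The growth plate class had only 658 WT and 834 Wls cells, so the range at 0 also held cells of the hypertrophic class. *Runx3* had 466 WT and 443 Wls UMIs in that range, against 190 and 138 UMIs in the growth plate class. A large part of the 503 WT and 608 Wls *Runx3* UMIs of the hypertrophic class thus lay in cells without a *Col10a1* UMI.

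The members changed at different points along this order. Depth changed along it too, with median UMIs of 3448, 5945, 7000 and 6791 in the WT library and 3249, 5063, 6411 and 7139 in the Wls library. The part of depth in the steps was not tested. *Sox5* stepped down through it, from 220.5 CPM at no *Col10a1* to 179.6, 133 and 69.8 CPM in the WT library and from 228 to 182, 84.7 and 65.4 CPM in the Wls library. *Sox9* dropped only in the top range, from 2199, 2067 and 2628 CPM to 1476 CPM (1403 to 1553) in the WT library and from 2266, 2234 and 2094 CPM to 1488 CPM (1416 to 1563) in the Wls library. *Sp7* had its step at the other end, from 84.9 CPM at no *Col10a1* to 219, 215 and 254 CPM, and from 78.8 to 179.6, 249 and 234 CPM. *Runx2* went from 177 to 225, 256 and 254 CPM and from 126 to 194, 193 and 269 CPM.

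*Runx3* behaved otherwise than *Runx2* at the top of the order. It was 141, 183 and 158 CPM in the lower ranges of the WT library and 111 CPM (91.6 to 134) in the highest, where *Runx2* was 254 CPM (224 to 287). In the Wls library it was 118, 192 and 252 CPM (203 to 307) and then 119.5 CPM (99.7 to 142). *Dlx5* went from 61.3 to 101, 114 and 110.2 CPM in the WT library and from 61.2 to 132, 146 and 129 CPM in the Wls library. *Ihh*, the signal made by prehypertrophic cells, went from 101 to 1078 CPM and from 129 to 1085 CPM over the same ranges.

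**Figure D4:**
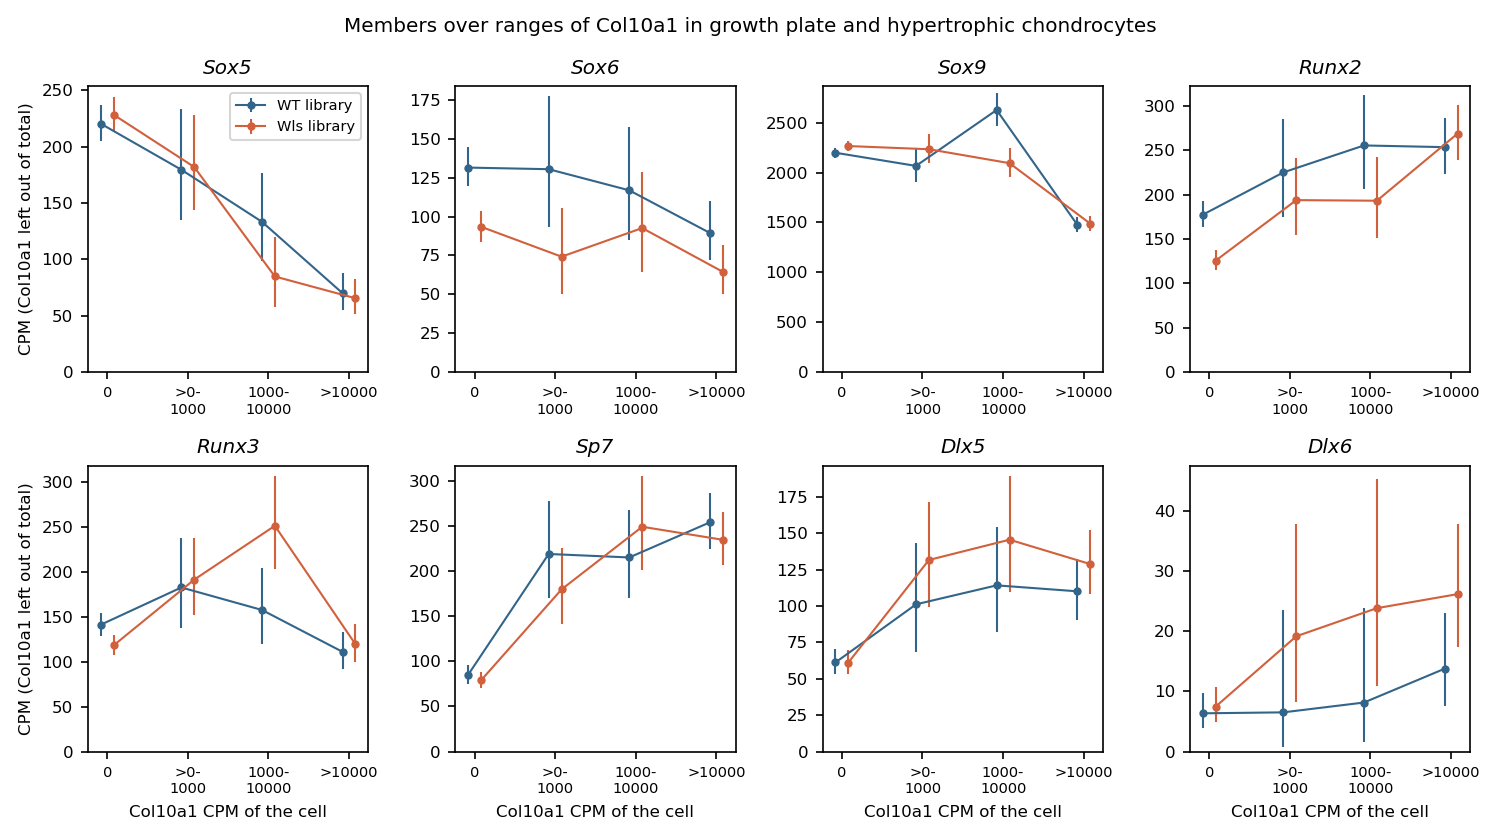
Level in CPM (scaled UMIs) of the members in growth plate and hypertrophic cells by the *Col10a1* level of the cell (4 ranges, x axes), per library, with 95% Poisson intervals. *Sox5* steps down along the order to 69.8 and 65.4 CPM, *Sox9* is lower only in the top range, *Sp7* is higher from the first *Col10a1*-positive range on, and *Runx3* is 111 and 119.5 CPM in the top range, below its middle ranges.

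Members were also compared cell by cell within a class, as a description. In cells thinned to 1000 UMIs, *Sox5* was found in 19.5% (17.8 to 21.4) of WT chondrocyte-like cells with *Sox9* and in 19.9% (16.6 to 23.5) of those without it, and in 19.2% and 15.5% in the Wls library. *Sp7* was found in 36.2% of WT osteolineage-like cells with *Runx2* and 32.9% of those without, and in 36.5% and 36.8% in the Wls library. *Runx2* was found in 20.3% of WT hypertrophic cells with *Sox9* and 14.6% of those without, and in 18.8% and 22.0% in the Wls library. *Runx3* was found in 15.3% (8.40 to 24.7) of WT hypertrophic cells with *Runx2* and 16.1% (12.4 to 20.3) of those without, and in 22.2% (14.1 to 32.2) and 12.1% (8.99 to 15.9) in the Wls library. Over 36 such comparisons of pairs within a library the intervals overlapped in every case, and the same held at 500 UMIs per cell. Overlapping intervals are no test of the difference, and none was run, as cells of 1 library are not replicates. With *Runx2* found in 33.0% and 30.8% of thinned osteolineage-like cells, a cell counted as negative can still carry the transcript.

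Across 21 classes in 2 libraries (42 points, which share libraries and so are not independent), the members fell into a SOX group, a bone group and the RUNX genes of blood, which is given as a description. The Pearson correlation of log2(CPM + 10) was 0.89 for *Sox6* with *Sox9*, 0.88 for *Sox5* with *Sox6*, 0.91 for *Dlx5* with *Dlx6*, 0.89 for *Dlx5* with *Sp7* and 0.78 for *Runx2* with *Sp7*. Within the RUNX family it was 0.65 for *Runx1* with *Runx3* and 0.56 for *Runx2* with *Runx3*.

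Among 11154 other genes, the pattern of *Sox9* was most like that of *Hapln1*, a cartilage link protein (0.95), and that of *Sox5* most like *Gdf5*, a joint-forming growth factor (0.91). *Sp7* and *Dlx5* resembled *Alpl*, the phosphatase of mineralizing cells (0.95 and 0.92), and *Dlx5* also *Omd* (0.92). *Runx2* was most like the vitamin D receptor gene *Vdr* (0.83), *Runx1* most like the myeloid factor gene *Cebpa* (0.89), *Runx3* most like *Adk* (0.86), *Sox6* most like *Abtb2* (0.93) and *Dlx6* most like the guidance gene *Slit2* (0.95). With a pseudocount of 1 in place of 10 CPM, 14 of the 27 genes named, 3 for each member, were named again.

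Genes on which these factors are known to act were placed by their highest class, taken from the mean CPM of the libraries. Only the 21 classes with at least 30 cells per library were ranked. As 11 of 13 cartilage targets, 12 of 12 bone and hypertrophy targets and 4 of 7 blood targets were also on the marker lists that named the classes, their places are a description and carry no evidence on the factors. Of the 13 cartilage targets of the SOX trio, 10 were highest in growth plate cells and 3 in hypertrophic cells. *Col2a1*, the main cartilage collagen, was 91337 CPM in the WT and 95705 CPM in the Wls growth plate cells, and *Col9a1* was 20536 and 19989 CPM. Of the 12 bone and hypertrophy targets of RUNX2 and SP7, 7 were highest in osteoblast-like cells, 3 in Cxcl12-rich cells and 2, *Col10a1* and *Ihh*, in hypertrophic cells. *Ibsp*, a bone matrix protein, was 34072 and 28917 CPM in osteoblasts, whereas *Mmp13*, a collagenase, was 8880 and 9818 CPM in Cxcl12-rich cells and 947 and 778 CPM in osteoblasts. Of the 7 blood targets of RUNX1, 2 were highest in mast cell and basophil-like cells, the class with most *Runx1*, and 2 in osteoclast-like cells, where *Runx1* was low.

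Relatives of the members had other places. Of 9 further SOX genes with at least 50 UMIs, 4 (*Sox7*, *Sox13*, *Sox17* and *Sox18*) were highest in arterial endothelial-like cells among the ranked classes, with *Sox17* at 714 and 659 CPM. *Sox8* alone was highest in growth plate cells among them, at 101 and 123 CPM. In the muscle-like class, too small to be ranked with 15 WT and 14 Wls cells, *Sox8* was 101 and 388 CPM (243 to 587), from 6 and 22 UMIs. *Dlx3* was highest in the Hbegf-led stroma, at 312 and 233 CPM, the class with most *Sox5*. *Cbfb*, which encodes the shared partner subunit of the RUNX proteins, was widely present, at 227 and 236 CPM in mast cell and basophil-like cells, 250.3 and 178 CPM in multipotent HSPC-like cells and 143 and 112 CPM in osteoblast-like cells. Its highest class differed between the libraries, and only 3 of 7 RUNX partners had the same highest class in both. Of 15 other skeletal transcription factors, 5 were highest in hypertrophic cells, among them *Mef2c*, a driver of hypertrophy, at 666 and 644 CPM.

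The libraries were close for the summed sets. The SOX trio in chondrocyte-like cells was 2287 CPM in the WT and 2226 CPM in the Wls library, a ratio of 0.973 (0.956 to 0.991), and the osteoblast set in osteolineage-like cells was 1149 and 1152 CPM, a ratio of 1.002 (0.929 to 1.08). The clearest single differences lay in growth plate cells. There, 5 of the 8 members with at least 20 UMIs were past 1.5-fold in either direction, where 15.8% of the 9775 genes counted in those cells were.

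In growth plate cells *Runx2* was 129 CPM in the WT and 63.7 CPM in the Wls library, a ratio of 0.495 (0.406 to 0.602). *Runx3* was 87.7 and 53.6 CPM (ratio 0.612, 0.488 to 0.766), *Sp7* 24.0 and 8.55 CPM (0.356, 0.206 to 0.597) and *Dlx5* 25.8 and 13.2 CPM (0.511, 0.324 to 0.797). *Runx1* ran the other way with 11 and 40 UMIs, at 5.08 and 15.5 CPM (3.06, 1.54 to 6.62). *Runx2*, *Runx3*, *Sp7* and *Dlx5* were all higher in hypertrophic than in growth plate cells in both libraries. In growth plate and hypertrophic cells together the ratio was 0.808 (0.738 to 0.884) for *Runx2*, an interval below 1. It was 0.959 (0.864 to 1.06) for *Runx3*, 0.931 (0.837 to 1.04) for *Sp7* and 1.10 (0.958 to 1.26) for *Dlx5*, intervals that include 1. Of all 9 members only *Runx1*, at 1.504 (1.03 to 2.23), and *Dlx6*, at 1.63 (1.09 to 2.45), were past 1.5-fold there, where 12.8% of 11348 genes were.

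The makeup of the growth plate class also differed between the libraries, and its part in these ratios was not tested. An *Igfbp5*-led sub-cluster held 103 WT and 350 Wls cells, and *Runx2* was 4.13 and 6.48 CPM in it, *Sp7* having 0 and 1 UMIs. In the *Flrt2*-led sub-cluster of 411 WT and 330 Wls cells, *Runx2* was 151 CPM (131 to 173) and 109 CPM (90.1 to 131) and *Runx3* 88.1 and 85.5 CPM. In the *Top2a*-led, cycling sub-cluster of 128 and 119 cells, *Runx2* was 129 CPM (99.8 to 164) and 53.2 CPM (34.5 to 78.6), *Runx3* 127 CPM (98.1 to 162) and 68.1 CPM (46.6 to 96.2) and *Sp7* 25.4 CPM and 0 UMIs. A small *Zfp36*-led sub-cluster of 16 and 35 cells held 119 CPM (43.5 to 258) and 149 CPM (86.8 to 239) of *Runx2*, from 6 and 17 UMIs. *Runx2* was thus lower in the Wls library in the *Flrt2*-led and *Top2a*-led sub-clusters but not in the *Zfp36*-led one, and the *Igfbp5*-led sub-cluster, nearly without it, held more cells there.

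*Sox6* showed a smaller and more even difference. Its Wls to WT ratio was 0.704 (0.593 to 0.836) in growth plate cells, 0.707 (0.594 to 0.841) in hypertrophic cells and 0.711 (0.629 to 0.802) in both together, without reaching 1.5-fold, while in superficial cells it was 0.953 (0.798 to 1.14) and in Ucma-led cells 1.11 (0.914 to 1.34). *Sox5* and *Sox9* stayed at 1.03 (0.911 to 1.15) and 1.04 (0.999 to 1.08) in growth plate cells.

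**Figure D5:**
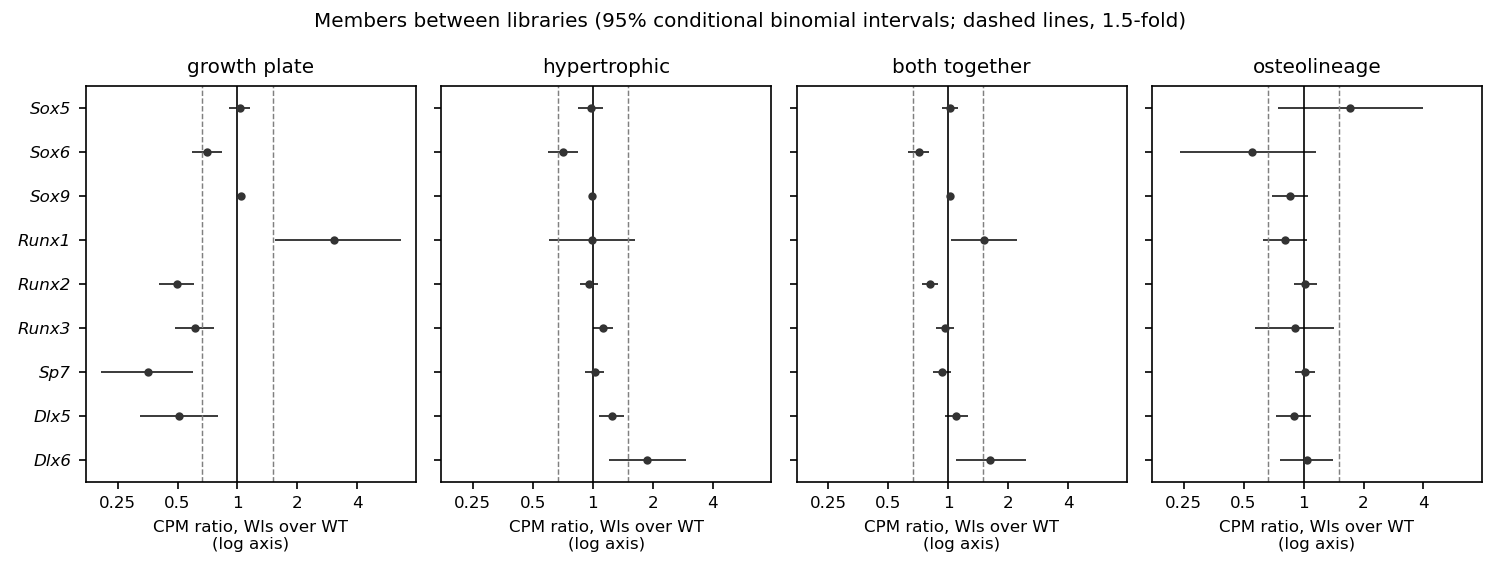
Ratio of the member's CPM in the Wls library over the WT library (x axes, log scale) in growth plate cells, hypertrophic cells, both together and osteolineage-like cells, with 95% conditional binomial intervals; dashed lines mark 1.5-fold in either direction. *Runx2*, *Runx3*, *Sp7* and *Dlx5* lie between 0.356 and 0.612 in growth plate cells and between 0.808 and 1.10 with both zones together, and *Sox6* lies near 0.71 in all of the first 3 panels.

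Hypertrophic cells had 1 of 9 members past 1.5-fold, where 15.6% of 10075 genes were. This was *Dlx6*, at 11.4 and 21.2 CPM (1.86, 1.21 to 2.92), and *Dlx5* beside it was 114 and 143 CPM (1.25, 1.08 to 1.44). A *Col1a1*-led sub-cluster of 25 WT and 144 Wls hypertrophic cells held 12.3 CPM of *Dlx6* in the WT and 41.5 CPM (29.2 to 57.1) in the Wls library, from 2 and 37 UMIs. The 10 osteoblast markers summed to 4005 and 7118 CPM in hypertrophic cells. Their part in the result was not tested. Of the 10 bone and hypertrophy targets of RUNX2 and SP7 with at least 20 UMIs in these cells, *Bglap*, *Col1a1* and *Ifitm5* were past 1.5-fold higher in the Wls library and *Spp1* and *Mmp13* lower, and none of the 13 cartilage targets of the SOX trio was past it in growth plate or hypertrophic cells.

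With its classes pooled, the bone lineage held few differences of the members between the libraries. Of 9 members in all osteolineage-like cells 2 were past 1.5-fold, where 16.5% of 9035 genes were, and both were sparse: *Sox5* with 13 and 14 UMIs (1.71, 0.748 to 3.96) and *Sox6* with 29 and 10 UMIs (0.549, 0.239 to 1.16). Without the mixed group *Sox5* was left with 5 and 1 UMIs, *Sox6* stood at 0.714 (0.270 to 1.71) and *Runx1*, at 122 and 67.2 CPM, was past the limit (0.551, 0.398 to 0.754). *Runx2* was 402 and 411 CPM (1.02, 0.898 to 1.16), *Sp7* 501 and 511 CPM (1.02, 0.908 to 1.14), *Dlx5* 175 and 156 CPM (0.892, 0.725 to 1.09) and *Dlx6* 71.6 and 74.3 CPM (1.04, 0.758 to 1.41). None of the 12 bone and hypertrophy targets was past 1.5-fold in these pooled cells. Within single classes some differed more. *Dmp1* was 171 CPM in the WT and 51.5 CPM in the Wls library in osteoblast-like cells, but 18.4 and 115 CPM in Cxcl12-rich cells. *Ibsp* was 3792 and 1514 CPM in Cxcl12-rich cells. The osteolineage-like cells numbered 326 in the WT and 175 in the Wls library. Within osteoblast-like cells *Runx1* was 85.0 CPM (65.6 to 108) and 30.5 CPM (17.4 to 49.5). In the Slc1a3- and Omd-led stroma *Dlx6* was the only member past 1.5-fold of the 5 with enough UMIs (0.520, 0.274 to 0.938), where 28.3% of 2841 genes were, and no cell held more than 6 of its 45 WT UMIs or 2 of its 16 Wls UMIs.

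The remaining classes gave few differences beyond counting error. In Ucma-led cells *Runx2* (0.599, 0.386 to 0.940) and *Runx3* (0.537, 0.351 to 0.830) were past 1.5-fold of the 7 members counted, against 14.5% of 10318 genes. In superficial cells *Runx2* was past it from 5 and 17 UMIs (1.74, 0.617 to 6.04), 1 of 6 members against 15.3% of 10251 genes. In the Stc1- and Bpifb1-led cartilage *Runx2* was past it with 13 and 67 UMIs (1.94, 1.06 to 3.84), 1 of 5 members against 23.6% of 8232 genes, and *Sox9* was 0.791 (0.729 to 0.860) of its WT level. In the Hbegf-led stroma 0 of 3 members were past it, against 17.0% of 8240 genes, with *Sox5* at 0.954 (0.819 to 1.11) and *Sox9* at 1.32 (1.11 to 1.57).

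In all blood-like cells 3 of 6 members were past 1.5-fold, against 12.4% of 11425 genes, and all of these were SOX genes at low levels. *Sox9* was 21.8 and 45.1 CPM (2.07, 1.61 to 2.67), beside a sum of 1580 and 1967 CPM for the 10 chondrocyte markers in the same cells. The mixed blood and cartilage group was part of these totals. Without it *Sox9* was 12.65 and 12.3 CPM (0.976, 0.637 to 1.48), from 63 and 39 UMIs, beside marker sums of 893 and 559 CPM, so the difference was not found in the other blood-like cells. In all blood-like cells *Sox5* was 4.86 and 8.16 CPM and *Sox6* 3.31 and 2.12 CPM, with intervals of the ratio that include 1. The RUNX genes were nearer to each other between libraries, *Runx1* at 1.02 (0.905 to 1.14), *Runx2* at 0.862 (0.686 to 1.08) and *Runx3* at 1.21 (1.06 to 1.38). Of the 7 blood targets of RUNX1, *Spi1*, *Pf4* and *Itga2b* were past 1.5-fold higher in the Wls library with all blood-like cells pooled. In its highest class *Spi1* was 447 and 649 CPM (osteoclast-like) and *Itga2b* 138 and 210 CPM (megakaryocyte-like). *Pf4* went the other way in macrophage-like cells, its highest class, at 904 and 652 CPM. In megakaryocyte-like cells, its second class, *Pf4* was higher in the Wls library, at 63.1 and 503 CPM. Macrophage-like cells numbered 47 in the WT and 59 in the Wls library. The part of the makeup of the blood-like cells was not tested.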

How the data were processed

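Processed tables from single-cell libraries of Lin- fetal femoral marrow were used, 1 for each of 2 genotypes. The deposited counts are whole UMIs per gene and cell. Per the labels' processing notes and the methods of the study, the authors demultiplexed with bcl2fastq 2.19.1.403, grouped UMIs with UMI-tools 1.0.1, aligned to mm10 with STAR 2.7.1a and counted with featureCounts 1.6.4 of Subread. The strand of counting is not given in the sources used here.

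Cells were kept if the number of detected genes lay between 200 and 5000 and the mitochondrial share was under 30% of UMIs. Counts were scaled to 10000 per cell, and 2004 variable genes, without the 9 members, gave 11 principal components, 20 neighbours and 16 Leiden clusters (resolution 0.5), which were divided into 30 fine classes. Classes were named from marker lists. *Snorc* and *Cnmd* were on the lists but were not found in the tables. Doublet scores were computed with Scrublet and no cell was removed by them, and groups with cartilage markers on top of another cell type were kept out of the named classes but not out of the totals of all osteolineage-like and all blood-like cells. The 48 barcodes that kept cells of the libraries shared were retained.

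UMIs were then summed per class and library. Orders of levels used the 21 classes with at least 30 cells per library. Between libraries, members with at least 20 UMIs in a class were compared at a limit of 1.5-fold. Named genes were the members, the 3 genes most correlated with each over classes and libraries (at least 200 UMIs) and up to 4 of the highest genes of each pathway list (at least 50 UMIs). A count of 0 was read against a floor of 3 counts. Members and lists were chosen with earlier results of these data known. The calculation of levels and ratios was tested on simulated data. Alternatives covered the clustering, cell filter, doublet scores, pooling, totals, thinning to 500 in place of 1000 UMIs, the pseudocount and the fold limit. No test between genotypes was made. Python 3.11.15 was used with scanpy 1.11.5, anndata 0.12.19, igraph 0.11.9, numpy 2.4.6, scipy 1.17.1, pandas 2.3.3 and matplotlib 3.10.9. The values of 1 gene of the pathway lists are not reported here.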

Additional observations from a re-analysis of the deposited data

How the results depend on the processing

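No paired analysis was possible because each genotype had 1 library, and for the same reason no library could be left out. Of the values for the main comparisons, 62 stayed within their counting intervals (counts, within 1.5 times) under the alternatives, 16 moved beyond and 1 changed sign; for the other values the numbers were 308, 22 and 3. In log2 units, the SOX trio in chondrocyte-like over osteolineage-like cells went from 3.471 in the WT and 3.646 in the Wls library to 3.874 and 4.002 without the cells with the top 5% of doublet scores, and to 3.954 in the WT library with the study's cell labels. Without the groups mixed with cartilage, chosen after seeing the data, it was 4.213 and 4.25, *Runx1* in blood-like over stromal cells was 2.892 in the Wls library, and the Wls over WT value of *Sox9* in blood-like cells went from 1.049 to -0.03498. The osteoblast set in osteolineage-like over chondrocyte-like cells, at 2.088 and 2.661, was 1.899 and 2.301 with 30 principal components and 2.779 and 3.433 as a mean over cells, and in the Wls library it was 2.782 with the members kept among the variable genes and 2.067 with the libraries clustered separately. *Runx1* in blood-like over stromal cells, at 2.134 and 2.386, was 2.527 and 2.783 as a mean over cells and 2.502 in the WT library with the study's labels. With the libraries clustered separately, the Wls over WT value of the trio in chondrocyte-like cells turned from -0.03893 to 0.04914 and that of *Sox9* to 0.05754. In growth plate cells the Wls over WT value was taken over 12 settings, some chosen after seeing the data and some with hypertrophic cells added. It ranged from -1.215 to -0.3083 for *Runx2*, from -0.9125 to -0.0605 for *Runx3*, from -2.113 to -0.1029 for *Sp7* and from -0.5846 to -0.3119 for *Sox6*. The upper ends for *Runx2*, *Runx3* and *Sp7* came with hypertrophic cells added, a comparison over more cells. There *Dlx5* turned to 0.1348. With a pseudocount of 1 CPM, 14 of 27 gene pairs were named again. The cause of the other shifts was not tested.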
